A study of Mus musculus with 9 samples.

Results

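The enzymes that break glucose down to lactate and pyruvate (glycolysis) and those that oxidise pyruvate in the mitochondrion (pyruvate dehydrogenase and the tricarboxylic acid, or TCA, cycle) were followed in mouse brain. The set holds 34 genes, 19 of glycolysis and 15 of the TCA cycle. A gene was represented by a probe set that names it and no other gene, and where several did so, by the one whose mean over the 9 arrays was highest. On that rule 31 of the 34 genes were measured, 16 of glycolysis and all 15 of the TCA cycle, among 19938 genes in all. The isomerase Gpi1 and the enolase Eno1 were not analysed here. Gapdh, glyceraldehyde 3-phosphate dehydrogenase, lies on 25 probe sets that each name further genes, and these were kept apart.

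The arrays carry total RNA of brain tissue, which the series description places in the cortex, from mice aged about 5 months that were injected intraperitoneally every day for 10 weeks. There were 3 groups of 3 biological replicates: 5xFAD mice given human amylin, 5xFAD mice given phosphate-buffered saline (PBS), and B6SJLF1/J wild-type (WT) mice given PBS. The 5xFAD line carries human transgenes driven by the Thy1 promoter of neurons and deposits amyloid, and amylin is a hormone that pancreatic beta cells secrete with insulin. Amylin was given to 5xFAD mice only, so its action in WT mice was not measured.

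The adult brain lives mainly on glucose. Neurons take it up through the transporter encoded by Slc2a3, hexokinase traps it, phosphofructokinase commits it to glycolysis, and lactate dehydrogenase interconverts pyruvate and lactate, part of which passes between astrocytes and neurons. Pyruvate dehydrogenase feeds acetyl groups into the TCA cycle, where citrate synthase, isocitrate dehydrogenase and 2-oxoglutarate dehydrogenase set much of the pace and yield the NADH that drives ATP synthesis.

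An array held 35556 probe sets, with array medians from 5.71 to 5.79 and correlations between arrays from 0.991 to 0.997. All 8 measured marker genes of cortical neurons lay above the median of every array. That median covers all probe sets, of which 12146 name no gene. The means of the striatal and hippocampal markers given below lay above it too, so this does not tell brain regions apart. Both 5xFAD groups differed from WT in markers of other cells and regions, given as the mean log2 value of each list per array. Microglial markers ranged over 8.03 to 8.52 in amylin 5xFAD, 8.13 to 8.77 in PBS 5xFAD and 6.91 to 6.95 in WT mice. Striatal markers ranged over 9.60 to 9.67 in amylin 5xFAD, 9.57 to 9.81 in PBS 5xFAD and 7.97 to 8.28 in WT mice. Hippocampal markers ranged over 6.38 to 6.44 in amylin 5xFAD, 6.09 to 6.51 in PBS 5xFAD and 7.25 to 7.35 in WT mice. Neuronal markers ranged over 10.58 to 10.63 in amylin 5xFAD, 10.49 to 10.56 in PBS 5xFAD and 10.70 to 10.76 in WT mice. Between PBS 5xFAD and WT these 12 markers had a median difference of -0.08, with 9 means lower and 3 higher. Slc17a6 differed most, by -1.22. Thalamic markers ranged over 7.19 to 7.78 in amylin 5xFAD, 7.30 to 7.52 in PBS 5xFAD and 8.14 to 8.38 in WT mice. The list means of cortical neuron markers overlapped, with 8.72 to 8.74 in amylin 5xFAD, 8.55 to 8.89 in PBS 5xFAD and 8.66 to 8.83 in WT mice. Single markers of that list differed by -0.62 to 0.57 between PBS 5xFAD and WT, with 4 means higher and 4 lower. In such bulk tissue, fewer cells of a type and less RNA per cell cannot be told apart. Striatal, hippocampal and thalamic markers separated both 5xFAD groups from WT, so genotype and the brain region sampled cannot be told apart either.

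Of the measured glycolytic genes 14 of 16, and of the TCA genes 15 of 15, belonged to the top 25% of genes by mean signal; the exceptions were Hk2 and Pfkfb3. The mean log2 value of the 16 glycolytic genes ranged over 10.09 to 10.11 in amylin 5xFAD, 10.06 to 10.12 in PBS 5xFAD and 10.16 to 10.19 in WT mice, so that both 5xFAD groups lay below every WT array. The mean of the 15 TCA genes ranged over 10.13 to 10.15 in amylin 5xFAD, 10.05 to 10.11 in PBS 5xFAD and 10.16 to 10.18 in WT mice, and here the 3 groups did not overlap.

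**Figure D1:**
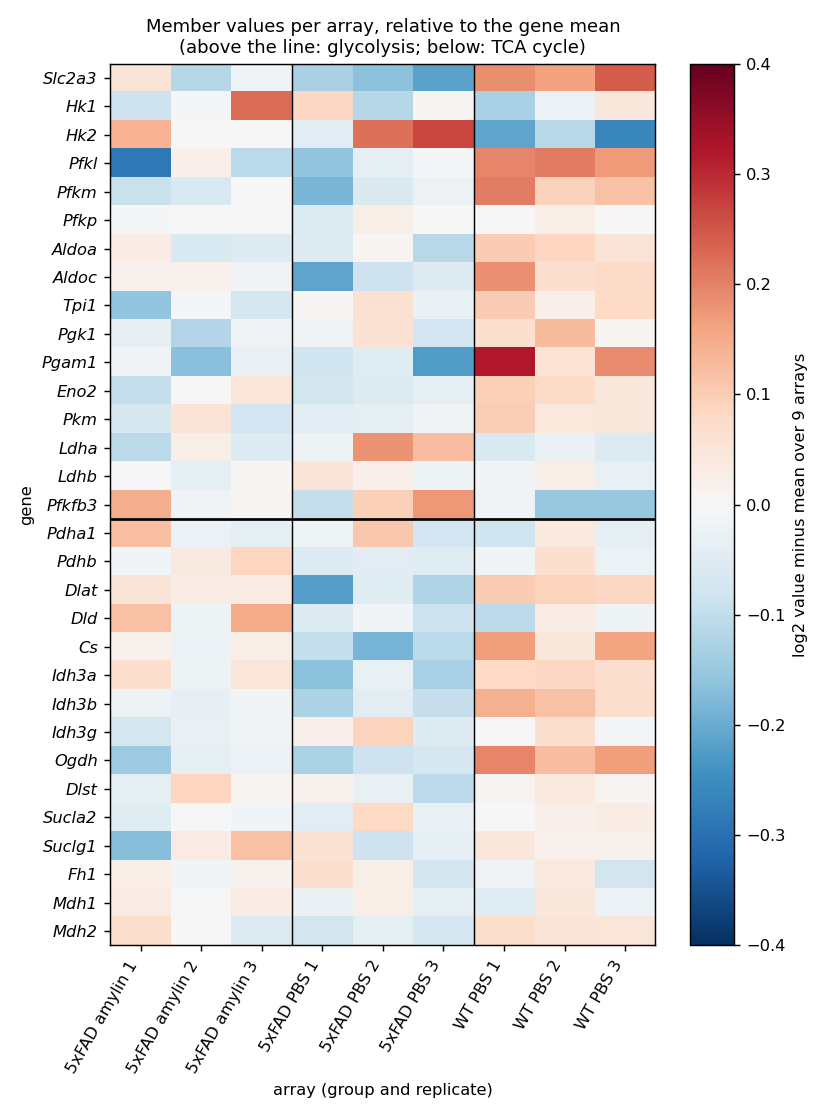
Log2 value of each measured gene on each of the 9 arrays minus its mean over the arrays, with arrays of amylin 5xFAD, PBS 5xFAD and WT mice in columns from left to right and genes in rows (glycolysis above the line, TCA cycle below). Slc2a3, Pfkl, Pfkm, Pgam1, Cs and Ogdh are red on all 3 WT arrays and Hk2 is blue there.

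The first comparison, PBS 5xFAD against WT, sets transgenic against wild-type mice without the peptide. Regional markers differed between these groups too, so the transgenes and the tissue sampled cannot be told apart. In PBS 5xFAD mice 8 of the 31 genes fell and 1 rose at an adjusted p under 0.05. The genes that fell were the neuronal glucose transporter Slc2a3, the phosphofructokinase Pfkm, the aldolase Aldoc and the phosphoglycerate mutase Pgam1 in glycolysis, and Dlat, Cs, Idh3b and Ogdh around the TCA cycle. They fell by 0.20 to 0.37 on the log2 scale, and the hexokinase Hk2 rose. The 9 genes called were 29% of the 31, where 8.58% of all genes and 15.1% of the top 25% of genes by mean signal were called. Lower calls made up 25.8% of the 31 genes, against 4.92% of all genes and 10.3% of the top 25%, and higher calls, of which Hk2 was the only one among the 31, made up 3.66% of all genes. At an unadjusted p under 0.05, 9 glycolytic and 6 TCA genes passed, where 21.2% of all genes did. The 3 PBS 5xFAD arrays lay below the 3 WT arrays for 15 of the 31 genes (48.4%; 15.6% of all genes) and above them for Hk2 and Ldha (6.45%; 11.2% of all genes). Here and below, shares without overlap were not taken for the top 25% of genes by mean signal. The median SE was 0.05 over the 31 genes and 0.07 over all genes, so groups come apart more easily for the 31. These p-values rest on 3 biological replicates a group. The spread of a gene was estimated from all 9 arrays, amylin 5xFAD included, and drew partly on the spread of all genes.

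The part of each promoter before the transcription start was set beside these calls for 29 of the 31 genes, from the RefSeq promoter table of build GRCm38.p6; Slc2a3 and Idh3a had no window. Shown are the 250 bases before the start of Hk2, the gene that rose (minus strand, chr6:82774455-82774704), of Pgam1, which fell (plus strand, chr19:41911621-41911870), and of Cs (plus strand, chr10:128337477-128337726), Dlat (minus strand, chr9:50659781-50660030) and Idh3b (minus strand, chr2:130284452-130284701), which fell. Each reads 5′ to 3′ along the gene, and capitals mark ACGTG, the core of the hypoxia response element, on either strand (read as CACGT on the other).
Hk2: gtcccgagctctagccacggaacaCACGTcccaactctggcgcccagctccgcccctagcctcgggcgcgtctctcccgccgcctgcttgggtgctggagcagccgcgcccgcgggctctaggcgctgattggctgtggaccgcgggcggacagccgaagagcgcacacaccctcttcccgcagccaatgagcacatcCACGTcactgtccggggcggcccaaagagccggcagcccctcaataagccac
Pgam1: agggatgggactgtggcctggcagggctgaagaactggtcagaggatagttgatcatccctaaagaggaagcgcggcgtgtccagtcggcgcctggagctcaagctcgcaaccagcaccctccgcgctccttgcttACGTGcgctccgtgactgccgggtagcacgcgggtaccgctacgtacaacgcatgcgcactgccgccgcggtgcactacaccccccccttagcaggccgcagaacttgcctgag
Cs: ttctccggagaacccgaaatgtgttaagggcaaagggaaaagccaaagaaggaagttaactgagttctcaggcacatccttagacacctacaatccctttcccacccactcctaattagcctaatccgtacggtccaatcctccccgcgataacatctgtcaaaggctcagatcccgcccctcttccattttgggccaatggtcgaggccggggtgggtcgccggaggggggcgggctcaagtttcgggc
Dlat: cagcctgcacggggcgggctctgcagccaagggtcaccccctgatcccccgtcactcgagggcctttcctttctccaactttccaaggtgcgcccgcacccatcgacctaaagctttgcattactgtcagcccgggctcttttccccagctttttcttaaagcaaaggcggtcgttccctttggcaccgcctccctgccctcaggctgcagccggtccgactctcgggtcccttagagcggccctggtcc
Idh3b: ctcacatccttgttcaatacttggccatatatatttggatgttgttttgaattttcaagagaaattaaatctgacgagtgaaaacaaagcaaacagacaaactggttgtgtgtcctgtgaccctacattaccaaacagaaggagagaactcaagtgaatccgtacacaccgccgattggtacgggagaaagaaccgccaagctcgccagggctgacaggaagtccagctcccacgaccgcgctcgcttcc
The core was found at 2 places in the window of Hk2 and at 1 in that of Pgam1, and the windows of Cs, Dlat and Idh3b held 0. Each gene shown has 1 window. Pfkm, Aldoc and Ogdh, which fell too, have 4, 2 and 6 windows and are not shown. A gene with several windows was counted for a motif if any of them held it. Over both strands, ACGTG was found in the windows of 8 of 15 glycolytic genes (Aldoa, Hk2, Ldha, Pfkfb3, Pfkm, Pgam1, Pgk1 and Pkm) and of 4 of 14 TCA genes (Idh3g, Mdh1, Ogdh and Pdhb), against 18.5% of the 27025 genes in the table. The E-box CACGTG, which contains ACGTG, was found in 3 glycolytic windows (Ldha, Pfkfb3 and Pfkm) and 1 TCA window (Ogdh), against 6.86% of all genes. The motif of nuclear respiratory factor was found in 1 window of each set (Ldha and Sucla2; 4.23% of all genes), and AAGGTCA, to which oestrogen-related receptors bind, in 0 of either (4.7%). Genes that fell thus stood among those with and those without a match to ACGTG.

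Slc2a3, which encodes the high-affinity glucose transporter of neurons, showed the largest fall among the 31 genes. Its log2 value was 9.80, 9.64 and 9.74 in amylin 5xFAD mice, 9.62, 9.59 and 9.54 in PBS 5xFAD mice, and 9.94, 9.91 and 10.00 in WT mice. The 3 groups did not overlap, with PBS 5xFAD lowest and WT highest. Set against WT, PBS 5xFAD mice had a difference of -0.37 ± 0.06 (SE), or 22.4% less (adjusted p = 0.00415). This call held in all 19 alternative settings, with adjusted p from 0.00125 to 0.0228.

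Hexokinase, the first enzyme of the pathway, was measured by 2 genes. Hk2, the inducible form, had the values 6.06, 5.92 and 5.92 in amylin 5xFAD, 5.88, 6.14 and 6.18 in PBS 5xFAD, and 5.71, 5.81 and 5.65 in WT mice. It lay close to the median of the arrays, which also covers probe sets that name no gene, and was among the lowest 50% of genes left out in 1 alternative. Both 5xFAD groups lay above all WT arrays. In PBS 5xFAD mice it rose by 0.34 ± 0.08 (SE), or 26.9%, over WT (adjusted p = 0.0366), a call that was kept without amylin 5xFAD replicate 1 or PBS 5xFAD replicate 1 and lost without each of the 7 other arrays (adjusted p of 0.00773 to 0.129 over the 9). Of 11 measured microglial markers 10 rose and 0 fell in the same comparison (3.66% and 4.92% of all genes), with the array means given above. The part of these markers in the difference of Hk2 was not tested.

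Hk1, the main hexokinase of brain, has 2 probe sets of its own, and they gave different answers. The brighter one, which stands for the gene under the rule, carries 1 accession, and that accession annotates 18 probe sets, of which 16 also name the ribosomal protein gene Rpl17 and 2 name Hk1 only. On it, PBS 5xFAD differed from WT by 0.03 ± 0.09 (SE; adjusted p = 0.921), and the arrays overlapped. The other probe set carries 8 accessions, RefSeq mRNAs of Hk1 among them, and had the values 9.87, 9.90 and 9.83 in amylin 5xFAD, 9.78, 9.77 and 9.83 in PBS 5xFAD, and 10.10, 10.04 and 10.10 in WT mice. There both 5xFAD groups lay below all WT arrays, and PBS 5xFAD differed from WT by -0.28 ± 0.05 (SE), or 17.8% less (adjusted p = 0.00598 with this probe set in place of the other). The 16 probe sets that name Rpl17 too had differences of 0.01 to 0.09 in the same comparison. The choice of this second probe set was made after the values had been seen, and it brings the glycolytic genes called to 6 of 16.

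**Figure D2:**
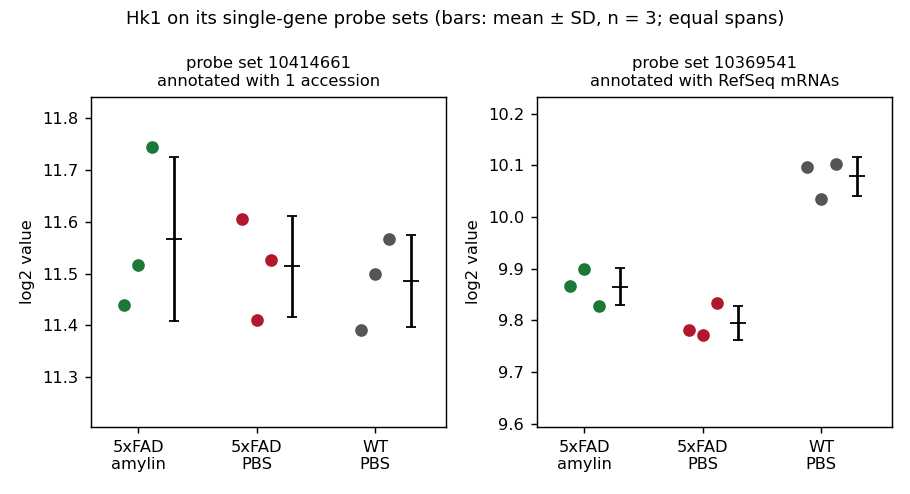
Log2 values of Hk1 on its 2 single-gene probe sets, with amylin 5xFAD, PBS 5xFAD and WT arrays from left to right as points and mean ± SD (n = 3) as bars; both axes span the same range and do not start at 0. The probe set with 1 accession (left) overlaps between groups, and the one with RefSeq mRNAs (right) has WT arrays at 10.04 to 10.10 above both 5xFAD groups.

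Phosphofructokinase, the committing step, has 3 genes here. Pfkm, the muscle-type subunit, had the values 9.89, 9.91 and 9.97 in amylin 5xFAD, 9.79, 9.92 and 9.95 in PBS 5xFAD, and 10.18, 10.07 and 10.09 in WT mice, and both 5xFAD groups lay below WT. It fell by 0.23 ± 0.06 (SE) in PBS 5xFAD relative to WT, or 14.5% (adjusted p = 0.0431). Pfkl, the liver-type subunit, had the values 8.53, 8.83 and 8.71 in amylin 5xFAD, 8.66, 8.77 and 8.81 in PBS 5xFAD, and 9.01, 9.02 and 8.98 in WT mice. No 5xFAD array reached the WT arrays, but the difference of -0.26 ± 0.08 (SE) between PBS 5xFAD and WT did not pass (adjusted p = 0.0718). Pfkp, the platelet-type subunit, differed by -0.02 ± 0.04 (SE) with overlapping arrays.

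Further down the pathway, Aldoc, the aldolase typical of astrocytes in the forebrain, had the values 11.72, 11.72 and 11.69 in amylin 5xFAD, 11.49, 11.62 and 11.65 in PBS 5xFAD, and 11.89, 11.77 and 11.78 in WT mice. The 3 groups were apart, PBS 5xFAD being lowest, and Aldoc fell by 0.22 ± 0.06 (SE) in PBS 5xFAD relative to WT, or 14.4% (adjusted p = 0.0414). Of 10 measured astrocyte markers 1 rose (Gfap, by 1.63 ± 0.14 SE) and 1 fell (Fgfr3, by 0.41 ± 0.08 SE) in the same comparison. Of all genes 3.66% were called higher there and 4.92% lower. Among the 10 markers 5 means were higher and 5 lower in PBS 5xFAD, with a median difference of -0.03. The list mean per array, Gfap included, was 9.31 to 9.35 in amylin 5xFAD, 9.26 to 9.43 in PBS 5xFAD and 9.16 to 9.28 in WT mice; the part of these markers in the difference of Aldoc was not tested. Pgam1, which moves the phosphate of 3-phosphoglycerate, had the values 10.95, 10.80 and 10.94 in amylin 5xFAD, 10.89, 10.92 and 10.74 in PBS 5xFAD, and 11.29, 11.02 and 11.15 in WT mice. WT arrays were spread most widely but all lay above the others, and Pgam1 fell by 0.31 ± 0.08 (SE) in PBS 5xFAD relative to WT, or 19.1% (adjusted p = 0.045). Its 2 other single-gene probe sets share the annotation of the first. Their values were identical to each other on every array, so they give 1 further reading, a difference of -0.29 ± 0.07 (SE). Ldha, the lactate dehydrogenase subunit favoured in glycolytic tissue, had 10.51, 10.64 and 10.56 in amylin 5xFAD, 10.60, 10.80 and 10.74 in PBS 5xFAD, and 10.55, 10.59 and 10.56 in WT mice. The PBS 5xFAD arrays lay above WT by 0.14 ± 0.06 (SE), which did not pass (adjusted p = 0.22).

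The 11 glycolytic genes that did not pass had differences from -0.26 to 0.16 between PBS 5xFAD and WT. The median difference was -0.09 over the 16 genes and -0.01 over all genes, and 11 of the 16 means were lower in PBS 5xFAD. The 25 probe sets that name Gapdh with other genes differed by -0.01 to 0.01. With the quantile normalization repeated on the genes, the glycolytic median was -0.03 and 2 genes were called, Hk2 higher and Slc2a3 lower, where the deposited values gave 1 higher and 4 lower. The count of 5 also rested on single arrays: it was 1 without WT replicate 1 or 3, PBS 5xFAD replicate 2 or 3, or amylin 5xFAD replicate 3, it was 2 without WT replicate 2 or PBS 5xFAD replicate 1, and 3 without amylin 5xFAD replicate 2. Slc2a3 was among the genes called each time.

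The pyruvate dehydrogenase complex links glycolysis to the cycle. Its acetyltransferase core, Dlat, had the values 9.04, 9.01 and 9.02 in amylin 5xFAD, 8.77, 8.94 and 8.87 in PBS 5xFAD, and 9.09, 9.08 and 9.07 in WT mice. The PBS 5xFAD arrays lay below both other groups, and amylin 5xFAD lay just below WT. Dlat fell by 0.22 ± 0.05 (SE) in PBS 5xFAD relative to WT, or 14.3% (adjusted p = 0.029). The other subunits Pdha1, Pdhb and Dld were among 9 TCA genes whose differences between PBS 5xFAD and WT all lay between -0.06 and 0.03, the further ones being Dlst, Fh1, Idh3g, Mdh1, Sucla2 and Suclg1.

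Cs encodes citrate synthase, the entry of the cycle. Its values were 9.97, 9.93 and 9.98 in amylin 5xFAD, 9.86, 9.77 and 9.84 in PBS 5xFAD, and 10.12, 10.00 and 10.11 in WT mice. Again the groups did not overlap, and the amylin 5xFAD arrays lay between the others. Cs fell by 0.25 ± 0.05 (SE) in PBS 5xFAD relative to WT, or 16.2% (adjusted p = 0.0164).

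NAD-dependent isocitrate dehydrogenase is built of the products of Idh3a, Idh3b and Idh3g. Idh3b had the values 11.25, 11.23 and 11.26 in amylin 5xFAD, 11.14, 11.22 and 11.18 in PBS 5xFAD, and 11.41, 11.39 and 11.34 in WT mice, and fell by 0.20 ± 0.05 (SE) in PBS 5xFAD relative to WT, or 12.9% (adjusted p = 0.0266). Idh3a, the catalytic subunit, had 10.40, 10.31 and 10.38 in amylin 5xFAD, 10.17, 10.30 and 10.20 in PBS 5xFAD, and 10.41, 10.42 and 10.40 in WT mice. Its PBS 5xFAD arrays lay below both other groups, with a difference of -0.18 ± 0.05 (SE) from WT that did not pass (adjusted p = 0.0566). Idh3g differed by 0.00 ± 0.05 (SE). The 3 subunit genes of 1 enzyme thus did not share 1 size of difference; differences between the subunits were not tested.

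Ogdh encodes the first component of the 2-oxoglutarate dehydrogenase complex. Its values were 10.15, 10.25 and 10.27 in amylin 5xFAD, 10.17, 10.21 and 10.22 in PBS 5xFAD, and 10.49, 10.42 and 10.46 in WT mice. The 5xFAD groups overlapped each other and lay below all WT arrays. Ogdh fell by 0.25 ± 0.05 (SE) in PBS 5xFAD relative to WT, or 16.2% (adjusted p = 0.0145), while Dlst, the core of the same complex, was among the genes near 0.

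The 11 TCA genes that did not pass had differences from -0.18 to 0.03. The median over the 15 genes was -0.06, where all genes had -0.01, and 12 of the 15 means were lower in PBS 5xFAD. With the quantile normalization repeated the median was -0.02 and 2 genes were called, Dlat and Ogdh, both lower. The count of 4 was 0 without WT replicate 1 or 3, and 2 without WT replicate 2, PBS 5xFAD replicate 1 or PBS 5xFAD replicate 3. Of 12 measured neuronal markers 5 fell and 0 rose in the same comparison, where 4.92% of all genes fell and 3.66% rose. Of 8 measured markers of cortical neurons 1 fell and 0 rose. All 8 striatal markers rose, and markers of the hippocampus (5 of 7) and the thalamus (6 of 8) fell. The part of these markers in the differences of the metabolic genes was not tested.

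**Figure D3:**
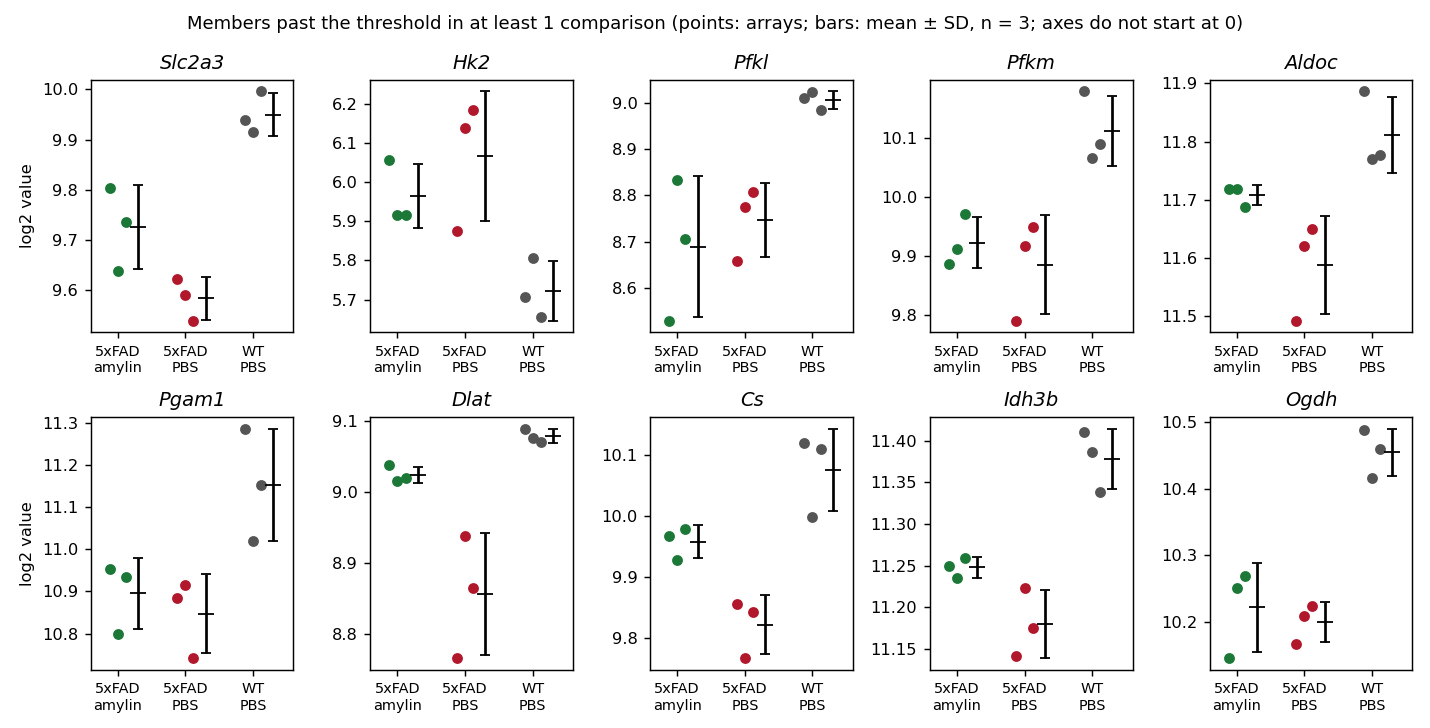
Log2 value per array (points) with mean ± SD (bars, n = 3) for the 10 genes called in at least 1 comparison, with amylin 5xFAD, PBS 5xFAD and WT mice from left to right; axes differ between panels and do not start at 0. All 3 PBS 5xFAD arrays lie below the 3 WT arrays in every panel but that of Hk2, where they lie above.

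The second comparison, amylin 5xFAD against PBS 5xFAD, asks what the peptide changed in the transgenic mice. At limma's adjusted p under 0.05 it called 0 of the 31 genes and 1 of all 19938 (0.00502%; 0.0201% of the top 25% by mean signal). At an unadjusted p under 0.05, 2 glycolytic genes passed, 1 higher and 1 lower, and 3 TCA genes passed, all higher, where 6.9% of all genes passed. The 3 amylin 5xFAD arrays lay above the 3 PBS 5xFAD arrays for 7 of the 31 genes (22.6%; 5.49% of all genes), namely Slc2a3, Aldoc, Pdhb, Dlat, Cs, Idh3a and Idh3b. They lay below for 0 genes (3.81% of all genes).

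Dlat had the smallest adjusted p of the 31 genes here, with a difference of 0.17 ± 0.05 (SE), or 12.3% more in amylin 5xFAD mice (adjusted p = 0.664). Idh3a differed by 0.14 ± 0.05 (SE; adjusted p = 0.687), Cs by 0.14 ± 0.05 (SE; adjusted p = 0.698) and Slc2a3 by 0.14 ± 0.06 (SE; adjusted p = 0.706). Ldha differed by -0.14 ± 0.06 (SE; adjusted p = 0.721), and its amylin 5xFAD and PBS 5xFAD arrays overlapped. None of these differences passed, which does not show that the groups were alike. The median over the TCA genes was 0.06 (13 of 15 means higher in amylin 5xFAD), over the glycolytic genes 0.01 and over all genes 0.00; with the quantile normalization repeated these lists had medians of 0.03 and -0.02. The PBS 5xFAD arrays enter this comparison and the first one alike, so a low value there raises the difference here and lowers it there. The mean of the neuronal markers in these mice was 10.58 to 10.63 with amylin and 10.49 to 10.56 with PBS, an order it shared with the TCA mean; its part was not tested.

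The third comparison, amylin 5xFAD against WT, called 2 of the 31 genes, both lower (6.45%), where 5.21% of all genes and 8.47% of the top 25% by mean were called. Lower calls made up 2.86% of all genes and 5.12% of the top 25%, and higher calls 2.35% of all genes, so the share of the 31 genes was near that of other genes of like signal. Pfkl fell by 0.32 ± 0.08 (SE), or 19.7%, in amylin 5xFAD relative to WT (adjusted p = 0.0452), and Ogdh by 0.23 ± 0.05 (SE), or 14.9% (adjusted p = 0.0293). The call of Pfkl was kept without amylin 5xFAD replicate 2 or PBS 5xFAD replicate 1 and lost without each of the 7 other arrays (adjusted p of 0.0223 to 0.146 over the 9), and that of Ogdh was kept only without 1 of the 3 PBS 5xFAD arrays (0.0385 to 0.117). Slc2a3 differed by -0.22 ± 0.06 (SE) and just missed the threshold (adjusted p = 0.0507). Arrays of amylin 5xFAD lay below all WT arrays for 13 of the 31 genes (41.9%; 12.3% of all genes) and above them for Hk2 (3.23%; 10.8% of all genes).

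Several genes that fell in PBS 5xFAD had smaller differences from WT in amylin 5xFAD that did not pass: Cs with -0.12 ± 0.05 (SE), Idh3b with -0.13 ± 0.05, Dlat with -0.05 ± 0.05, Aldoc with -0.10 ± 0.06, Pfkm with -0.19 ± 0.06 and Pgam1 with -0.26 ± 0.08. The direct comparison of both 5xFAD groups, given above, called none of them. These genes were picked because they had passed in PBS 5xFAD against WT, so smaller differences here can follow from that choice alone. Pfkl, which had not passed there, went the other way, with -0.26 in PBS 5xFAD and -0.32 in amylin 5xFAD. On its probe set with RefSeq mRNAs, Hk1 differed by -0.21 ± 0.05 (SE) between amylin 5xFAD and WT (adjusted p = 0.0289). The median over the 16 glycolytic genes was -0.10 and that over the 15 TCA genes -0.04, beside -0.01 over all genes.

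**Figure D4:**
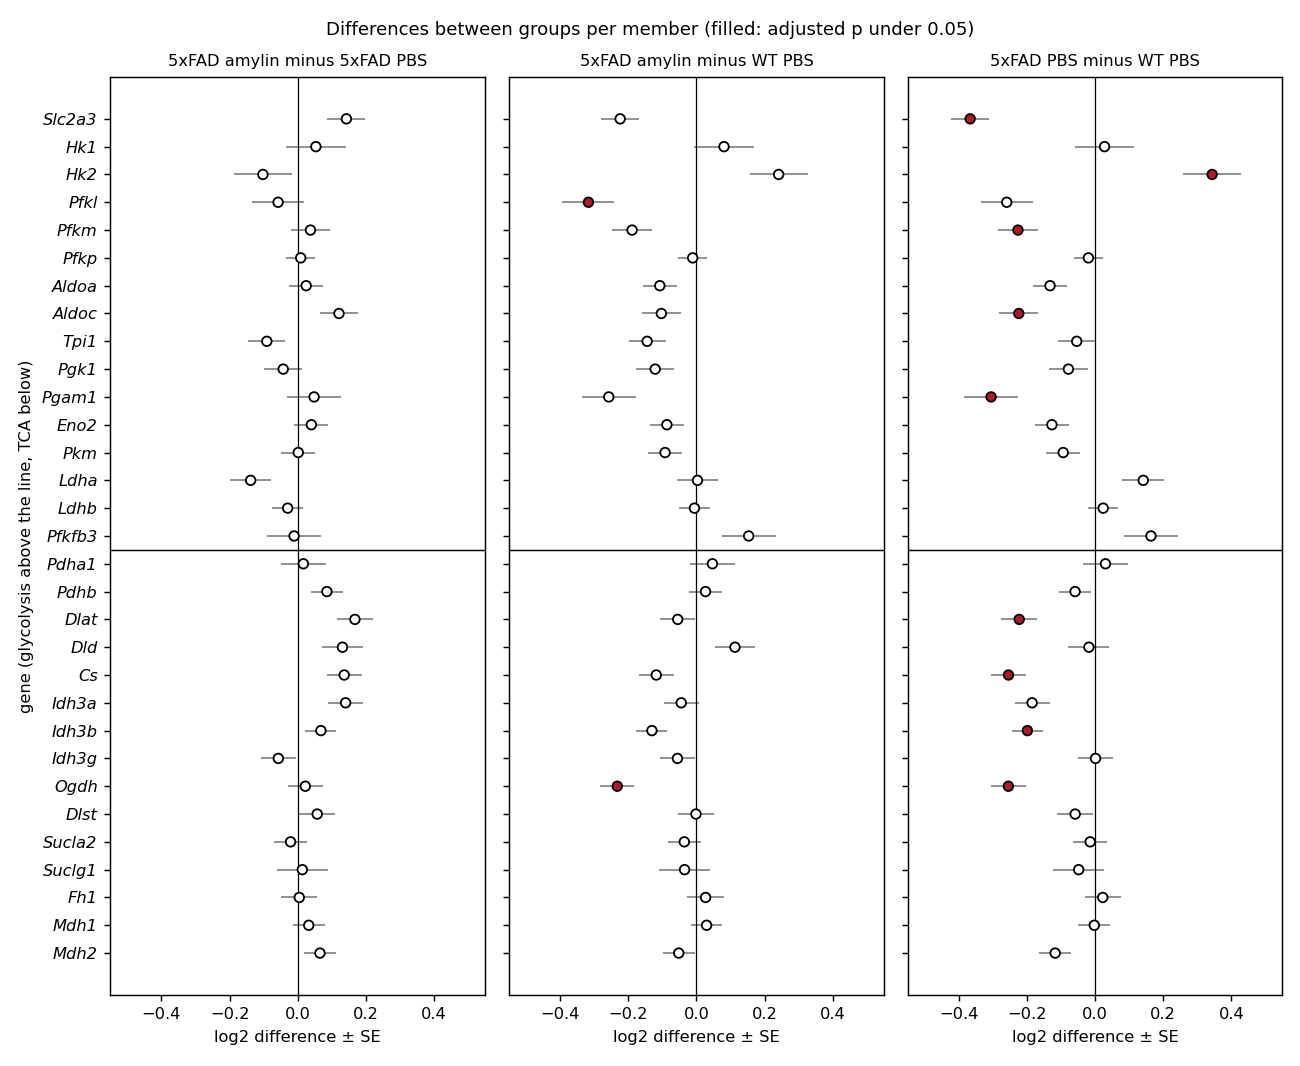
Log2 difference ± SE for each measured gene (glycolysis above the line, TCA cycle below) between amylin 5xFAD and PBS 5xFAD, between amylin 5xFAD and WT, and between PBS 5xFAD and WT mice, from left to right; filled points have an adjusted p under 0.05. The left panel holds 0 filled points, the middle panel 2 and the right panel 9.

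The enzymes and carriers around this core were read from the same fit. Pyruvate dehydrogenase is switched off by the kinases Pdk1 to Pdk4, and pyruvate carboxylase, the product of Pcx, is an enzyme of astrocytes that refills the cycle. Of the 9 measured genes of this group 3 fell and 0 rose in PBS 5xFAD against WT. Of all genes 4.92% fell and 3.66% rose in that comparison. Pdk2 had 9.02, 9.12 and 9.15 in amylin 5xFAD, 9.20, 9.13 and 9.06 in PBS 5xFAD, and 9.67, 9.39 and 9.59 in WT mice, and fell by 0.42 ± 0.08 (SE) in PBS 5xFAD relative to WT (adjusted p = 0.0109). Pdk4 fell by 0.48 ± 0.13 (SE; adjusted p = 0.0459), and Pcx by 0.31 ± 0.06 (SE; adjusted p = 0.0101). All 3 fell in amylin 5xFAD against WT as well, Pdk2 by 0.45 ± 0.08 (SE; adjusted p = 0.0112), Pdk4 by 0.57 ± 0.13 (SE; adjusted p = 0.0304) and Pcx by 0.28 ± 0.06 (SE; adjusted p = 0.022). In PBS 5xFAD against WT the calls of Pdk2 and Pcx held in all 19 alternatives; that of Pdk4 was kept without only 1 of the 9 arrays. In amylin 5xFAD against WT, Pdk2 passed in all 9 fits without 1 array, Pcx in 5 of 9 (adjusted p up to 0.0775; lost without WT replicate 1 or any 1 amylin 5xFAD array) and Pdk4 in 4 of 9 (up to 0.128; lost without any 1 WT array or amylin 5xFAD replicate 1 or 3). Both Pcx and Pdk4 were also lost there when only the 2 groups were fitted. The share of all genes called in amylin 5xFAD against WT was 5.21%. The same 3 WT arrays enter both comparisons with WT, so falls seen in both are not independent of each other.

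Cytosolic NADH from glycolysis enters the mitochondrion through the malate-aspartate and glycerol phosphate shuttles. Of 10 measured genes of these shuttles and the malic enzymes, 3 fell and 0 rose in PBS 5xFAD against WT. The share called was 8.58% of all genes. Gpd1, the cytosolic glycerol 3-phosphate dehydrogenase, had 8.80, 8.73 and 8.80 in amylin 5xFAD, 8.43, 8.66 and 8.66 in PBS 5xFAD, and 9.30, 9.08 and 9.13 in WT mice. The 3 groups did not overlap, and Gpd1 fell by 0.59 ± 0.08 (SE) in PBS 5xFAD relative to WT, or 33.3% (adjusted p = 0.00221), a call kept in all 19 alternatives. It also fell in amylin 5xFAD relative to WT, by 0.40 ± 0.08 (SE; adjusted p = 0.0199), and amylin 5xFAD differed from PBS 5xFAD by 0.19 ± 0.08 (SE; adjusted p = 0.712). Gpd1 is best known in brain from oligodendrocytes. Of 9 measured markers of these cells 1 fell in PBS 5xFAD (4.92% of all genes fell) and 5 fell in amylin 5xFAD (2.86%), both against WT. These markers averaged 9.23 to 9.46 in amylin 5xFAD, 9.56 to 9.75 in PBS 5xFAD and 9.67 to 9.90 in WT mice; their part was not tested. Slc25a12, the aspartate-glutamate carrier of neurons, fell by 0.57 ± 0.12 (SE; adjusted p = 0.0173) in PBS 5xFAD relative to WT, and Got2, the mitochondrial aspartate aminotransferase, by 0.20 ± 0.04 (SE; adjusted p = 0.0195). Both calls were lost without any 1 of the WT arrays, PBS 5xFAD replicate 1 or PBS 5xFAD replicate 3 (adjusted p up to 0.0753 and 0.0723), and that of Gpd1 in amylin 5xFAD against WT without WT replicate 1 or 3 or amylin 5xFAD replicate 2 or 3 (up to 0.0824).

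Among 8 measured further TCA enzymes 1 fell in PBS 5xFAD against WT, where 8.58% of all genes were called. This was Sdha, the flavoprotein of succinate dehydrogenase. Its values were 10.60, 10.66 and 10.62 in amylin 5xFAD, 10.58, 10.55 and 10.55 in PBS 5xFAD, and 10.85, 10.80 and 10.75 in WT mice. Sdha fell by 0.24 ± 0.05 (SE), and limma's adjusted p was 0.0125, but 0.0542 without WT replicate 1. Of 18 measured isozymes and regulators of glycolysis, and of 5 measured carriers of lactate and pyruvate, 0 passed limma's test in any of the 3 comparisons. At an unadjusted p under 0.05, 1 isozyme and 2 carriers passed in PBS 5xFAD against WT, where 21.2% of all genes did. In amylin 5xFAD against PBS 5xFAD, 0 genes of any of these pathway groups passed. At an unadjusted p under 0.05, which 6.9% of all genes reached there, 2 passed among the shuttles and malic enzymes. Passing too were 1 each among the carriers, the regulators of pyruvate dehydrogenase and the further TCA enzymes, and 0 among the isozymes.

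**Figure D5:**
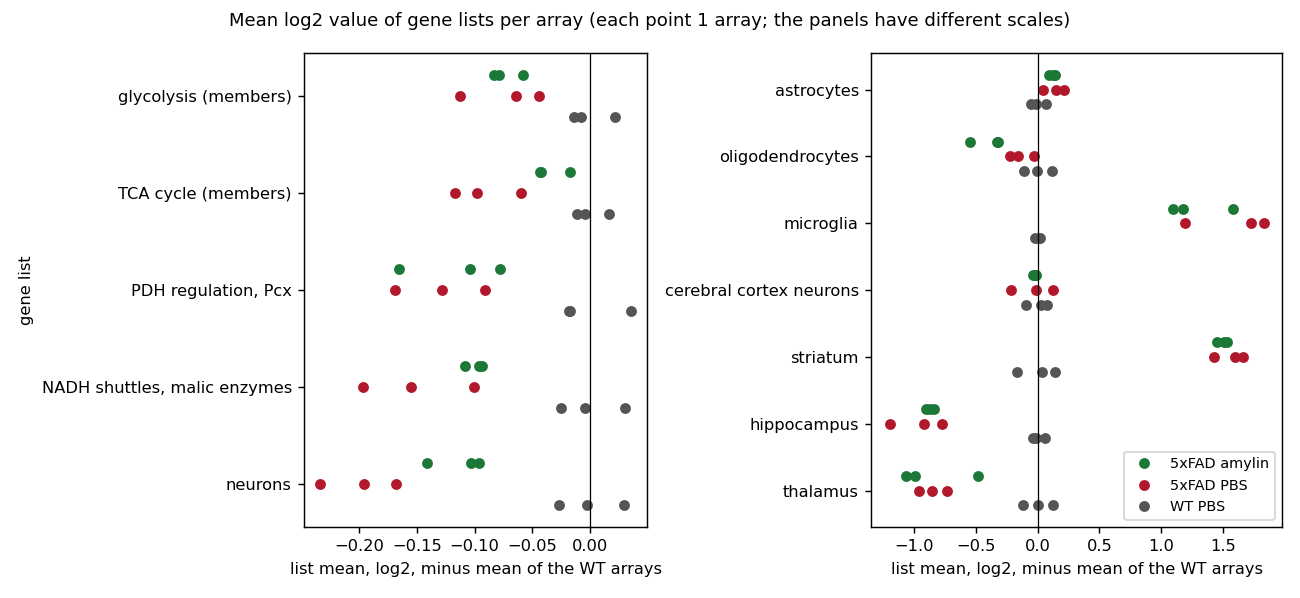
Mean log2 value of each gene list on each array minus the mean of the 3 WT arrays, with amylin 5xFAD (green), PBS 5xFAD (red) and WT (grey) arrays from top to bottom in each list; the panels have different scales. The glycolytic and TCA means of both 5xFAD groups lie below all WT arrays by far less than their microglial and striatal means lie above them.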

How the data were processed

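The 9 RNA samples were hybridised to Affymetrix mouse gene arrays. The authors deposited log2 values; per the submitters' processing notes these come from RMA as run by the package oligo, without versions. RMA corrects background, equalises quantiles and summarises probes. A genome build for the array annotation was not stated.

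Of 35556 probe sets, 21789 name 1 gene, 1621 several and 12146 none, and 999 genes had more than 1 probe set. The log2 values were used as deposited, without a filter. Groups were compared in 1 fit of the 9 arrays with limma 3.58.1 in R 4.3.3 (with version 1.17.8 of the package data.table), with 6 residual and 3.53 prior degrees of freedom and Benjamini-Hochberg adjustment over all 19938 genes. A gene was called at an adjusted p under 0.05. Differences are log2 differences with the SE of the fit, and percentages are computed from them. The fit was tested on simulated data. The number of arrays limits the precision: the median SE was 0.07 over all genes.

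Values per array are given for members called in a comparison or among the 3 smallest p of their list, and pathway genes are named where called or among the 2 smallest p. Members and lists were chosen with earlier results of these data known, so a list is described by counts and medians only. Promoter windows come from the RefSeq table of the GRCm38.p6 build, matched by symbol; motifs were searched in their upstream bases.

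The labels call the replicates biological. Replicate numbers were not taken to pair mice. Alternatives were repeated quantile normalization, median centring, leaving out the lowest 25% or 50% of genes, a trended and robust prior, fits of 2 groups, array weights, a replicate block, the mean of a gene's probe sets, other thresholds, leaving out each array, and, added after seeing the data, the second Hk1 probe set.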

Additional observations from a re-analysis of the deposited data

How the results depend on the processing

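With 3 biological replicates a group, calls near the threshold depended on the setting, while no called member changed sign in its called comparison. Without 1 array in turn, the genes called numbered 863 to 1779 (glycolysis 1 to 5, TCA 0 to 4) in PBS 5xFAD against WT, 0 to 7 in amylin against PBS 5xFAD, and 447 to 1086 (0 to 1 in either set) in amylin 5xFAD against WT. The medians of these fits ran from -0.105 to -0.0738 (glycolysis) and -0.0869 to -0.0408 (TCA), from -0.0115 to 0.0152 and 0.0341 to 0.0684, and from -0.110 to -0.0742 and -0.0463 to -0.0201. Repeated quantile normalization gave 2 calls in either set in PBS 5xFAD against WT, with medians of -0.028 (glycolysis) and -0.020 (TCA), then -0.022 and 0.029 in amylin against PBS 5xFAD, and -0.059 and -0.011 in amylin 5xFAD against WT. Fits of 2 groups gave 2 glycolytic calls in PBS 5xFAD against WT and 0 glycolytic and 0 TCA calls in amylin 5xFAD against WT, and called 0 genes between the 5xFAD groups. In amylin 5xFAD against WT, leaving out the lowest 25% or 50% of genes, the trended prior, an adjusted p under 0.1 (1723 genes in all) and the second Hk1 probe set each gave 2 glycolytic calls. At an unadjusted p under 0.05 the counts were 4229 genes (9 glycolytic) in PBS 5xFAD against WT, 1375 (2 glycolytic, 3 TCA) between the 5xFAD groups and 3824 (6 and 3) in amylin 5xFAD against WT.

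The labels do not say that replicate numbers pair mice. The deviations of same-numbered arrays from their group means correlated at -0.06 to 0.18 (4 of 9 above 0.1). Those of different-numbered arrays correlated at -0.23 to 0.13 (4 of 18 above 0.1). Deviations within a group sum to 0, so these correlations are not independent and cannot decide whether replicate numbers link arrays. The main fit assumed no pairing. With the replicate number as a block, 2 glycolytic and 2 TCA genes were called in PBS 5xFAD against WT, where the main fit called 5 and 4. The block fit called 0 genes between the 5xFAD groups, and 0 TCA genes in amylin 5xFAD against WT.

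Signs reversed only for differences that had not passed. For Hk1 they were -0.13 (PBS 5xFAD against WT) and -0.066 (amylin 5xFAD against WT) with the mean of its probe sets, -0.28 and -0.21 on the second one, and -0.020 to 0.080, -0.0081 to 0.15 and, between the 5xFAD groups, -0.036 to 0.12 without 1 array. Between the 5xFAD groups, repeated quantile normalization gave -0.0052 for Ogdh, -0.014 for Pygb, -0.016 for Hif1a and -0.00059 for Esrra, and array weights 0.0028 for Pfkl, 0.044 for Pdk4 and -0.040 for Esrra. Without 1 array, that comparison gave -0.059 to 0.051 for Egln3, -0.047 to 0.035 for Esrra, -0.0079 to 0.027 for Hif1a, -0.0011 to 0.060 for Ogdh, -0.069 to 0.0078 for Pdk2, -0.13 to 0.022 for Pfkl, -0.010 to 0.069 for Pfkm, -0.0051 to 0.096 for Pgam1 and -0.030 to 0.037 for Pygb. Ldha gave -0.031 to 0.033 in amylin 5xFAD against WT. The cause was not tested.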

Other observations

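Regulators of these enzymes were measured too. In PBS 5xFAD against WT 2 of 13 rose and 1 fell, where 8.58% of all genes were called. The counts were the same in amylin 5xFAD against WT, where 5.21% of all genes were called. Both comparisons use the same 3 WT arrays, so they are not independent. Egln3, a prolyl hydroxylase that marks the hypoxia-inducible factor for destruction and is itself induced by that factor, had 7.28, 7.06 and 7.25 in amylin 5xFAD, 7.20, 7.26 and 7.18 in PBS 5xFAD, and 6.68, 6.54 and 6.73 in WT mice. It rose by 0.56 ± 0.07 (SE) in PBS 5xFAD (adjusted p = 0.00165) and by 0.55 ± 0.07 in amylin 5xFAD (adjusted p = 0.00306), both relative to WT. Hif1a, the regulated subunit of that factor, rose by 0.19 ± 0.05 (SE; adjusted p = 0.0318) in PBS 5xFAD and by 0.20 ± 0.05 (adjusted p = 0.0386) in amylin 5xFAD. Esrra, an oestrogen-related receptor that drives mitochondrial genes, fell by 0.26 ± 0.06 (SE; adjusted p = 0.0255) in PBS 5xFAD and by 0.26 ± 0.06 (adjusted p = 0.0377) in amylin 5xFAD. In PBS 5xFAD against WT the calls of Hif1a and Esrra were lost without any 1 of the 6 arrays compared (adjusted p up to 0.103 and 0.104), and that of Egln3 was kept throughout (up to 0.0100). In amylin 5xFAD against WT, Egln3 was again kept in all 9 fits without 1 array (up to 0.0165), Hif1a in 3 of 9 (up to 0.126; lost without any 1 WT array, amylin 5xFAD replicate 2 or 3, or PBS 5xFAD replicate 3) and Esrra in 2 of 9 (up to 0.150; kept without amylin 5xFAD replicate 1 or PBS 5xFAD replicate 2).

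Side branches of glycolysis were read beside a share of 8.58% of all genes called in PBS 5xFAD against WT and 5.21% in amylin 5xFAD against WT. In the pentose phosphate pathway 1 of 7 measured genes, the epimerase Rpe, rose by 0.29 ± 0.07 (SE; adjusted p = 0.0242) in PBS 5xFAD against WT. In glycogen metabolism 1 of 11, the brain glycogen phosphorylase Pygb, fell by 0.24 ± 0.06 (SE) in PBS 5xFAD against WT (adjusted p = 0.0435). There 6 of the 11 had an unadjusted p under 0.05, as did 21.2% of all genes. The glycogen synthase Gys1 fell by 0.34 ± 0.08 (SE) in amylin 5xFAD against WT (adjusted p = 0.0397). Leaving out 1 array took the adjusted p up to 0.0803 for Rpe (without WT replicate 1 or 3, or PBS 5xFAD replicate 2 or 3, it did not pass), up to 0.149 for Pygb (kept without 3 of the 9 arrays) and up to 0.154 for Gys1 (kept without 2). The largest difference between the 5xFAD groups among the lactate and pyruvate carriers was that of Slc16a1, with 7.38, 7.52 and 7.68 in amylin 5xFAD and 7.80, 8.15 and 8.05 in PBS 5xFAD mice, beside 7.79, 7.78 and 7.70 in WT mice. The amylin 5xFAD arrays lay below both other groups, but the difference of -0.47 ± 0.10 (SE) from PBS 5xFAD did not pass (adjusted p = 0.495).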
